A study of Mus musculus with 36 samples.

Results

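The genes described here encode amino acid transporters of the solute carrier (SLC) families in mouse embryonic fibroblasts. The set was defined by symbol, with earlier results of these data known. It holds every gene of the families Slc1a, Slc3a, Slc7a, Slc36a, Slc38a and Slc43a, together with Slc6a6, Slc6a9 and Slc16a10. Of the 54735 genes in the table, 45 carried such a symbol. Of these, 29 reached 1 TPM, a length-scaled measure of transcript share, in at least 3 libraries, and changes are given for them. The other 16 stayed under that level: Slc1a1, Slc1a2, Slc1a7, Slc36a2, Slc36a3, Slc38a5, Slc38a8, Slc38a11, Slc3a1, Slc7a8, Slc7a9, Slc7a10, Slc7a12, Slc7a13, Slc7a14 and Slc7a15. The highest value that any of those 16 had in a single library was 0.891 TPM, for Slc3a1. Slc3a1 is the heavy chain of the kidney cystine carrier.

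The fibroblasts, abbreviated MEFs in the labels, were of 3 lines: wild type (WT), GCN2 delete (also written GCN2-/-) and PERK delete (also written PERK-/-). All were grown in RPMI 1640 with fetal bovine serum and penicillin-streptomycin. Each line was left untreated, given DMSO, starved of amino acids in RPMI 1640 SILAC medium without lysine and arginine, or given 200 nM thapsigargin, with 6 h of treatment. Each of the 12 groups held 3 libraries, 36 in all, and the labels call them technical replicates. Every p-value therefore measures the spread between technical replicates, pooled over all 12 groups of the 3 lines in 1 fit. Each genotype is 1 line, so the effect of a genotype and other properties of its line cannot be told apart. Starved cells were set beside untreated cells, and thapsigargin beside DMSO, the usual solvent of that drug. The sources used here name neither a medium-change control nor the serum content of the starvation medium.

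Cells import amino acids through carriers with overlapping substrates. Some SLC7 proteins are light chains that reach the plasma membrane only when bound to the heavy chain SLC3A2, also called CD98 or 4F2hc. The partner sets the substrate: SLC7A5 exchanges leucine and other large neutral amino acids, and SLC7A11 exchanges cystine for glutamate. GCN2 is a kinase activated by uncharged tRNA, and PERK is a kinase of the endoplasmic reticulum (ER) membrane that responds to unfolded protein. Thapsigargin blocks the ER calcium pump. Both kinases phosphorylate the translation factor eIF2alpha, which favours translation of the transcription factor ATF4. Several transporter genes are known ATF4 targets. This branch of signalling is the integrated stress response.

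The values are TPM, which are scaled by transcript length and add up to the same total in every library, so sequencing depth is unknown and no counting interval is given. In bulk RNA, fewer cells with a transcript and less of it per cell cannot be told apart. Of 8 fibroblast genes, Vim, Fn1, Col1a2 and S100a4 were at 105.54 TPM or more in every library, Pdgfrb had a lowest value of 11.3, Col1a1 of 8.94, Thy1 of 0.941 and Col3a1 of 0.203 TPM. The epithelial genes Epcam, Cdh1, Krt8 and Krt18 were at 1.02 TPM or less and the muscle genes Myod1 and Myog at 0.118 TPM or less. Of the blood genes, Ptprc and Cd3e were at 0.198 TPM or less, while Cd68, which is also found in lysosomes of other cells, had 2.65 to 10.3 TPM. The endothelial genes Pecam1, Kdr and Cdh5 reached 4.28, 3.06 and 0.511 TPM, and the neural genes Tubb3, Map2 and Gfap 44.8, 15.1 and 2.31 TPM. Eif2ak4, the gene for GCN2, was at 28.1, 25.2 and 20.5 TPM in untreated WT libraries and at 4.54, 5.52 and 5.69 TPM in untreated libraries of the GCN2-deletion line. Eif2ak3, the gene for PERK, was at 7.52, 7.46 and 5.97 TPM in untreated WT and at 4.58, 4.21 and 3.87 TPM in the untreated PERK-deletion line. In untreated cells both targeted transcripts were lower in their own deletion line and were not absent there. In starved cells Eif2ak3 overlapped between the lines, with 4.20, 3.82 and 3.93 TPM in WT and 4.24, 3.41 and 3.66 TPM in the PERK-deletion line, and with thapsigargin it had 13.0, 11.3 and 10.8 and 9.26, 8.06 and 8.51 TPM. The level of Eif2ak3 thus does not tell these lines apart in starved libraries. Transcripts annotated as microRNAs took 0.806% to 3.58% of TPM. They took over 2% in 6 libraries, among them replicate 1 of untreated WT and replicate 1 of the starved PERK-deletion line.

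In untreated WT cells the most abundant transcripts of the set were Slc38a2 and Slc3a2, with 292 ± 45.3 and 243 ± 4.31 TPM (mean ± SD, n = 3). They were followed by Slc6a6 with 149 ± 30.6, Slc7a5 with 133 ± 4.90 and Slc1a5 with 114 ± 29.4 TPM. Libraries of Slc38a2 overlapped those of Slc3a2, and libraries of Slc6a6, Slc7a5 and Slc1a5 overlapped each other, while every Slc3a2 library was above every Slc6a6 library. Slc38a2 is the sodium-coupled neutral amino acid carrier known as SNAT2, Slc6a6 carries taurine and Slc1a5 carries glutamine.

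Starvation of WT cells for lysine and arginine raised 10 of the 29 transporters and lowered 4 at an adjusted p under 0.05, while 15 did not pass. Over all 16083 genes tested, 12.5% rose and 17.4% fell. The median log2 change of the 29 was 0.07, against -0.05 for all genes tested. The transporters that rose most were Slc7a11, Slc6a9, Slc7a1, Slc1a4 and Slc7a5. The 4 that fell were Slc1a3, Slc38a4, Slc36a1 and Slc38a10. Without untreated replicate 1, 11 rose and 3 fell, and 13 of the 14 calls made with it remained. All changes are differences of log2(TPM + 1), which understates the change of genes of low TPM.

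Both chains of the CD98 heterodimers rose in starved WT cells. The heavy chain Slc3a2 had 240.3, 248 and 240.3 TPM in the 3 untreated libraries and 586, 616 and 644 TPM in the 3 starved ones. The ranges lay far apart, and the log2 change was 1.34 ± 0.0599 (SE, adjusted p = 6.57e-16). The leucine exchanger Slc7a5 went from 137, 133 and 127 to 361, 374 and 405 TPM, a log2 change of 1.51 ± 0.0981 (SE, adjusted p = 1.49e-12). Slc7a11, the cystine and glutamate exchanger that supplies cysteine for glutathione, went from 1.75, 1.79 and 1.16 to 18.9, 16.3 and 20.3 TPM. Its log2 change of 2.93 ± 0.175 (SE, adjusted p = 2.44e-13) was the largest of the set, and it started from a low level. Slc7a6, a light chain for cationic and neutral amino acids, had 55.5, 62.5 and 44.0 TPM untreated and 61.8, 70.0 and 64.6 TPM starved, and these ranges overlapped. Its change of 0.29 (adjusted p = 0.0298) was no longer called without starved replicate 2 or 3 or without untreated replicate 3 (adjusted p up to 0.257). Slc7a7, another light chain of this kind, was low, with 0.754, 0.750 and 0.376 TPM untreated and 0.563, 0.838 and 1.12 TPM starved, and did not pass. Slc7a8 was at 0.508 TPM or less in every library.

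Promoter windows from RefSeq were searched for TGATGNAAN, the composite element that ATF4 can bind together with a C/EBP protein, on both strands. Windows run from 250 bases before to 50 after a transcript start on GRCm38.p6, and 33 of the 45 genes had at least 1, with 46 windows in all. The element stood in windows of 3 of those 33 genes, Slc7a11, Slc1a4 and Slc7a7, and in those of 4.50% of all 27025 genes (3.95% of 32851 windows). The windows of Slc7a11 and Slc1a4 are shown because both genes rose under both stresses in WT. Slc7a7, not shown, did not pass under either stress there. Of the other genes that rose in starved WT cells, Slc7a5, Slc1a5 and Slc38a1 had no window to search. The windows of Slc3a2, Slc6a9, Slc7a1, Slc38a7 and Slc7a6 held no match. A link between the element and the response was not tested. Capitals mark the matches, which are a description of the letters and not a measured binding site. The Slc7a11 window is chr3:50443564-50443863, minus strand, with a match on the gene's strand from position -66 to -58 and a second on the other strand from -48 to -40, counted from the start. The Slc1a4 window is chr11:20332664-20332963, minus strand, with 1 match on the other strand from -5 to 3.
Slc7a11: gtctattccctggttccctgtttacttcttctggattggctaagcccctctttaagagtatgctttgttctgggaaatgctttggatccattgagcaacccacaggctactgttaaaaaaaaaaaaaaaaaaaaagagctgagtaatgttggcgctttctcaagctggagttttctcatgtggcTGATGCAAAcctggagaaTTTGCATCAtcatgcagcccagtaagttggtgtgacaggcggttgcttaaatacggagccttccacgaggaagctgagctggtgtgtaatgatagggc
Slc1a4: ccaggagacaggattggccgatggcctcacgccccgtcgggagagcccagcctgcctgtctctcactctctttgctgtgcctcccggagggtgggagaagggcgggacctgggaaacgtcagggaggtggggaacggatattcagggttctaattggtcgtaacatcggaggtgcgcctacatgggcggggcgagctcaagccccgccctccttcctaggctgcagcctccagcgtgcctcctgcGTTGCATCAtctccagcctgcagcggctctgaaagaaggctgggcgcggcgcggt
In these windows, TGACGTCA, the cyclic AMP response element, was found in 1 of the genes, Slc38a6, and in 2.03% of all genes. TGACTCA, the AP-1 site, was found in Slc7a1 and Slc3a1 and in 5.95% of all genes.

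The cationic amino acid carriers of SLC7 take up lysine and arginine, the amino acids missing from the medium. Of Slc7a1 to Slc7a4, the last with less known function, 1 of the 4 rose in starved WT cells. Over all genes tested 12.5% rose, and with 4 genes the count cannot be told from that share. Slc7a1, the widely expressed carrier CAT-1, had 61.4, 58.1 and 43.4 TPM untreated and 166, 173 and 184 TPM starved. The starved libraries were all above the untreated ones, and the log2 change was 1.68 ± 0.133 (SE, adjusted p = 9.26e-11). The others were low. Slc7a2 had a lowest, median and highest value of 0.346, 1.33 and 6.61 TPM over the 36 libraries, Slc7a3 of 0.583, 1.68 and 8.41 TPM and Slc7a4 of 0.0377, 0.390 and 2.78 TPM. Their changes in starved WT cells were 0.06, -0.10 and -0.22 on the log2 scale, and none passed.

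Among carriers of small neutral amino acids, the 2 SLC1 exchangers rose with starvation in WT. Slc1a4, the alanine, serine and cysteine carrier ASCT1, went from 21.8, 23.1 and 20.5 to 70.1, 68.9 and 73.9 TPM, a log2 change of 1.66 ± 0.0867 (SE, adjusted p = 1.42e-14). Slc1a5, the glutamine carrier ASCT2, went from 148, 102 and 92.6 to 195, 203 and 205 TPM, a log2 change of 0.84 ± 0.149 (SE, adjusted p = 6.78e-05). All starved libraries of both genes were above the untreated ones, and untreated replicate 1 was the highest of the untreated Slc1a5 libraries. Slc6a9, the glycine carrier GlyT1, went from 32.6, 25.3 and 23.9 to 149.6, 158 and 168 TPM. Its log2 change of 2.51 ± 0.166 (SE, adjusted p = 2.14e-12) was the second largest of the set. Exons of Slc6a9 overlap exons of other genes on the opposite strand, as do those of Slc7a7, Slc7a4, Slc7a2, Slc6a6, Slc43a2, Slc38a9 and Slc38a10 among the tested transporters. The kit is stranded per the labels, and the strand setting of the counting is not given in the sources used here.

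The sodium-coupled neutral carriers of the SLC38 family moved in both directions in starved WT cells. Slc38a1, a glutamine carrier, rose by 0.98 ± 0.128 (SE, adjusted p = 8.31e-07) to a mean of 184 ± 6.56 TPM. Slc38a7, a lysosomal glutamine and asparagine carrier, had 15.8, 11.0 and 10.4 TPM untreated and 18.8, 20.8 and 21.9 TPM starved, a log2 change of 0.70 ± 0.129 (SE, adjusted p = 0.000107). Slc38a2, the most abundant member of the family, had 331, 304 and 243 TPM untreated and 344, 338 and 354 TPM starved. The starved libraries were all above the untreated ones, and the change of 0.25 (adjusted p = 0.0925) did not pass. Slc38a4, a carrier of neutral and cationic amino acids, fell by 0.89 on the log2 scale (adjusted p = 9.41e-11), from 6.54 ± 0.608 to 3.07 ± 0.229 TPM, and stood at -0.58 against DMSO. Slc38a10, a SLC38 member with less known function, fell by 0.21 (adjusted p = 0.0162), a call that ended without starved replicate 1 or without untreated replicate 1 or 3 (adjusted p up to 0.119). Slc38a3, Slc38a6 and Slc38a9, the last a lysosomal arginine sensor, did not pass.

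Slc1a3, the glutamate carrier GLAST, fell with starvation in WT from 48.5, 38.3 and 29.1 to 17.7, 18.9 and 19.7 TPM, a log2 change of -0.97 ± 0.159 (SE, adjusted p = 2.14e-05). Untreated replicate 1 was the highest library. Set beside the DMSO libraries instead, the fall was -0.53 (adjusted p = 0.0134). Slc36a1, a proton-coupled carrier of lysosomes and plasma membrane, fell by 0.75 (adjusted p = 6.54e-06). With only untreated and starved WT libraries in the fit, Slc36a1 and Slc38a7 were no longer called (adjusted p = 0.0517 and 0.0583), nor were Slc7a6 and Slc38a10. Slc36a4, Slc43a1, Slc43a2, Slc43a3, Slc16a10, Slc1a6 and the taurine carrier Slc6a6 did not pass.

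**Figure D1:**
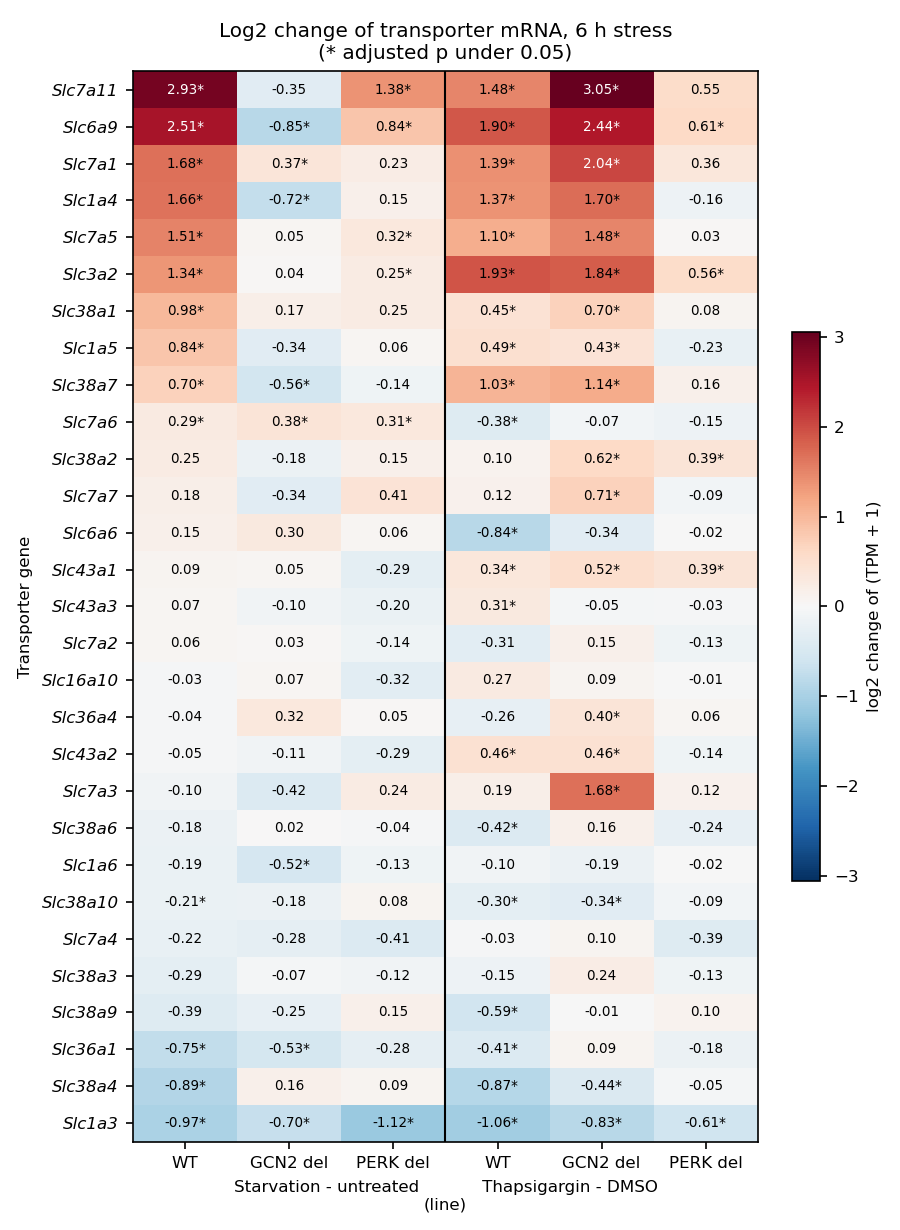
Log2 change of each of the 29 transporters (rows, ordered by the change in starved WT cells) with starvation against untreated and with thapsigargin against DMSO in the 3 lines (columns). An asterisk marks an adjusted p under 0.05. Red cells at the top of the WT columns fade in both stress columns of the PERK-deletion line and in starvation of the GCN2-deletion line.

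Thapsigargin raised 12 of the 29 transporters in WT cells and lowered 8, while 9 did not pass. Over all genes tested, 11.4% rose and 14.8% fell. The median log2 change was 0.12 for the transporters and -0.04 for all genes. Slc3a2, Slc6a9, Slc7a11, Slc7a1 and Slc1a4 rose most. Slc1a3, Slc38a4, Slc6a6, Slc38a9 and Slc38a6 fell most.

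The heavy chain Slc3a2 had 251, 254 and 251 TPM with DMSO and 939, 969.6 and 979.9 TPM with thapsigargin in WT. Its log2 change of 1.93 ± 0.0599 (SE, adjusted p = 1.59e-19) was the largest value, with that of Slc6a9 close to it. The log2 changes of the light chains were smaller on this scale, which understates that of Slc7a11 at its low level. Mean TPM went from 2.32 with DMSO to 8.29 with thapsigargin for Slc7a11, and from 252 to 963 for Slc3a2. Slc7a5 went from 153, 151 and 145 to 328, 327 and 311 TPM, a change of 1.10 ± 0.0981 (SE, adjusted p = 9.88e-10), and Slc7a11 from 2.94, 1.42 and 2.61 to 11.1, 6.82 and 6.98 TPM, a change of 1.48 ± 0.175 (SE, adjusted p = 1.55e-07). The 3 Slc7a11 libraries with thapsigargin were all above the DMSO libraries, with replicate 1 the highest. Slc7a6 went the other way, from 63.1, 49.8 and 58.9 to 48.3, 42.2 and 40.1 TPM, and fell by 0.38 (adjusted p = 0.0043). Slc7a7 had 0.448, 0.637 and 0.512 TPM with DMSO and 0.837, 0.570 and 0.606 TPM with thapsigargin and did not pass.

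Slc7a1 went from 62.6, 50.9 and 57.0 to 179, 141 and 134 TPM with thapsigargin in WT, a log2 change of 1.39 ± 0.133 (SE, adjusted p = 3.71e-09). Slc1a4 went from 22.6, 20.9 and 23.5 to 61.2, 59.0 and 57.0 TPM, a change of 1.37 ± 0.0867 (SE, adjusted p = 1.03e-12). Slc6a9 went from 33.9, 32.0 and 29.5 to 136, 118 and 112 TPM, a change of 1.90 ± 0.166 (SE, adjusted p = 6.07e-10). In these 3 genes no thapsigargin library overlapped a DMSO library. Slc38a7 went from 12.2, 9.99 and 10.6 to 24.5, 24.8 and 20.8 TPM, a change of 1.03 ± 0.129 (SE, adjusted p = 4.34e-07). Slc1a5, Slc38a1, Slc43a1, Slc43a2 and Slc43a3 rose by 0.31 to 0.49. Slc43a1 and Slc43a2 carry branched-chain and other large neutral amino acids, and Slc43a3 carries purine bases. All 5 of these calls rested on single libraries: Slc1a5 was not called without thapsigargin replicate 2 (adjusted p = 0.0627), and Slc38a1 without DMSO replicate 2 or thapsigargin replicate 1 (up to 0.0781). Slc43a1 was lost without DMSO replicate 2 or thapsigargin replicate 1 or 3 (adjusted p up to 0.0886). Slc43a2 was lost without DMSO replicate 1 or 2 or thapsigargin replicate 2 (up to 0.292), and Slc43a3 without DMSO replicate 2 or 3 or thapsigargin replicate 1 (up to 0.127). Against untreated WT cells in place of DMSO, Slc1a5 and these 3 were not called either, and Slc43a3 stood at 0.01.

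Of the transporters that fell with thapsigargin in WT, Slc1a3 went from 30.5, 24.1 and 28.4 to 14.6, 11.0 and 12.8 TPM, a log2 change of -1.06 ± 0.159 (SE, adjusted p = 7.67e-06). Slc38a4 fell by 0.87 (adjusted p = 1.63e-10) and Slc6a6 by 0.84 (adjusted p = 3.22e-05). The mean of Slc6a6 was 155 ± 25.3 TPM with DMSO and 86.3 ± 16.0 TPM with thapsigargin. Slc38a9 fell by 0.59 (adjusted p = 0.00938) and Slc36a1 by 0.41 (adjusted p = 0.00701), both genes of the lysosomal membrane, and Slc38a10 fell by 0.30. Slc38a6 fell by 0.42 (adjusted p = 0.0342), a call that ended on leaving out any of 5 of the 6 libraries, all but DMSO replicate 2 (adjusted p up to 0.142).

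**Figure D2:**
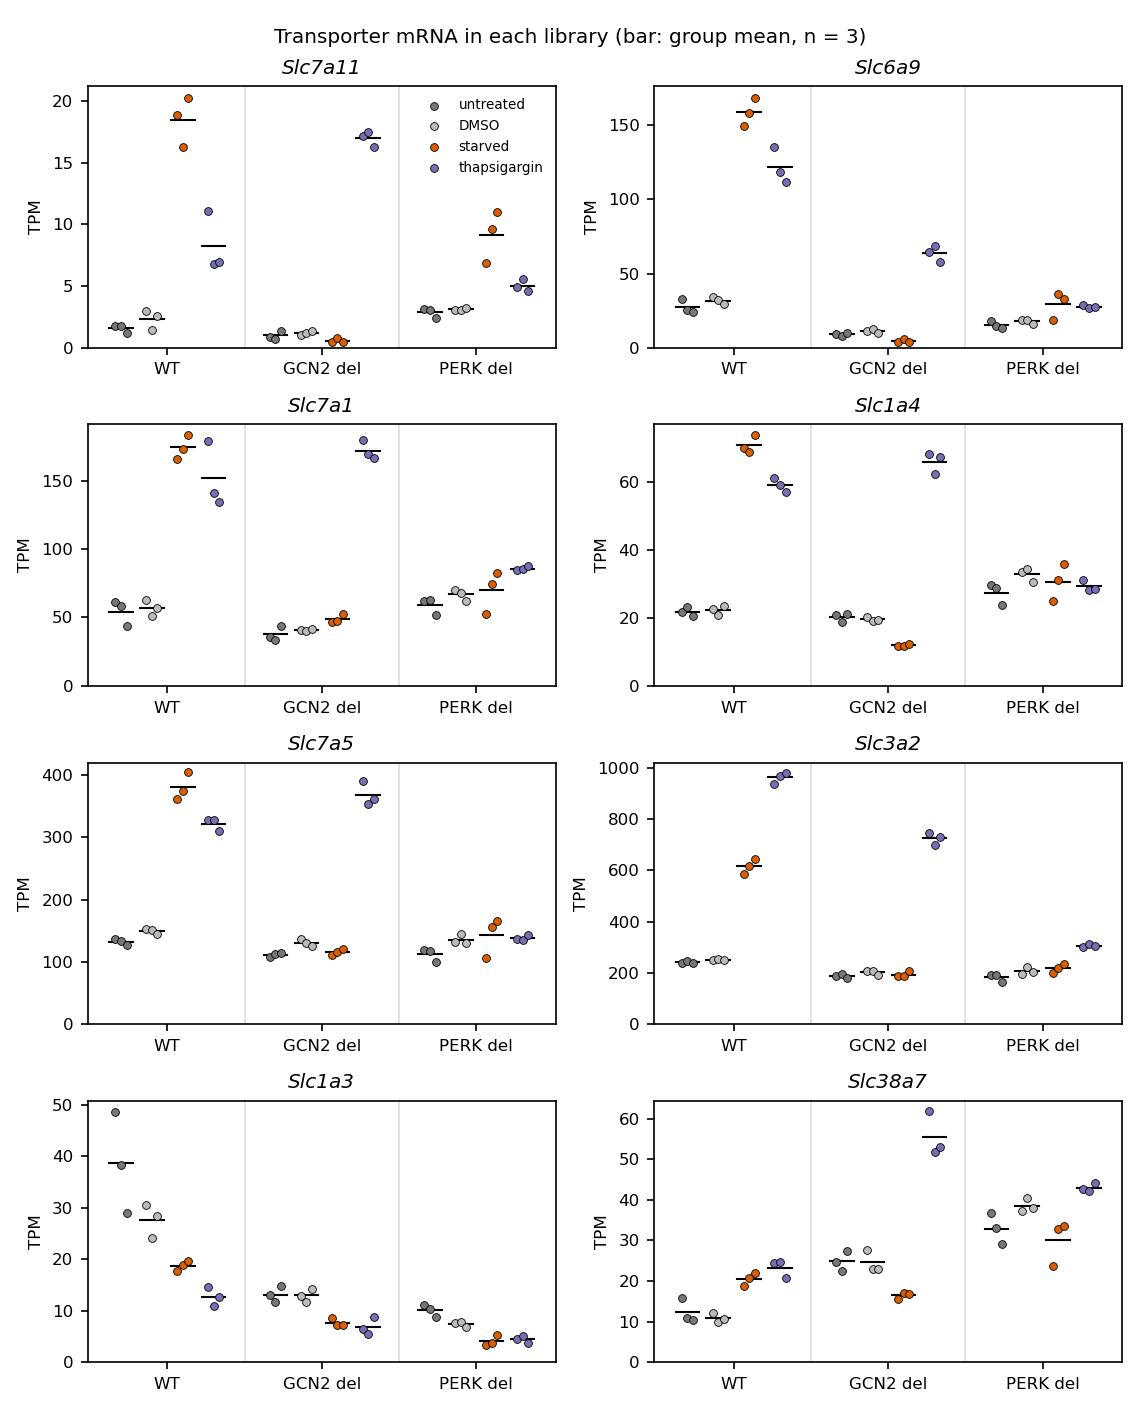
TPM in each of the 36 libraries (points) for the 8 transporters that changed by at least 1 on the log2 scale in either stress in WT, by line and treatment, with group means as bars (n = 3). Starved WT libraries of Slc7a11 lie between 16.3 and 20.3 TPM, and starved libraries of the GCN2-deletion line under 1 TPM.

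The 2 stress responses of WT cells were set against each other by the difference of the differences. It passed for 4 of the 29 transporters: the change with starvation minus that with thapsigargin was positive for 3 and negative for 1. Among all genes, 5.77% were higher and 6.17% lower. The difference was 1.44 ± 0.247 (SE, adjusted p = 0.000128) for Slc7a11, which rose under both stresses. It was 0.99 (adjusted p = 0.000822) for Slc6a6, whose change was 0.15 with starvation, not passing, and -0.84 with thapsigargin, a fall. It was 0.67 (adjusted p = 0.00138) for Slc7a6, which rose by 0.29 with starvation and fell by 0.38 with thapsigargin. The heavy chain Slc3a2 rose more with thapsigargin, with a difference of -0.59 ± 0.0847 (SE, adjusted p = 1.02e-05). With the 2 control groups exchanged, the difference of Slc7a11 was 0.74 (adjusted p = 0.033). In that setting 10 transporters were called, and 9 were called without the 6 libraries of high microRNA share.

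DMSO alone changed no transporter in any line at an adjusted p under 0.05 with limma. Of all genes tested, 0.118% passed at that threshold in WT, 0.149% with GCN2 deleted and 0.242% with PERK deleted. At an unadjusted p under 0.05 there were 4 transporters in WT, 2 with GCN2 deleted and 8 with PERK deleted. The share of all genes at the unadjusted threshold was not taken, so these 3 counts have no background to be read against. In WT the count at an adjusted p under 0.05 became 4 without untreated replicate 3.

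In the GCN2-deletion line starvation raised 2 of the 29 transporters and lowered 6, and 21 did not pass. Over all genes tested, 11.7% rose and 12.2% fell. The medians were -0.11 for the transporters and -0.0015 for all genes. Slc6a9 fell from 9.06, 8.16 and 9.82 to 4.04, 5.90 and 3.93 TPM, a log2 change of -0.85 ± 0.166 (SE, adjusted p = 0.000353). Slc1a4 fell from 21.0, 18.9 and 21.2 to 11.7, 11.8 and 12.2 TPM, a change of -0.72 ± 0.0867 (SE, adjusted p = 4.41e-07). Both of these genes had risen in starved WT cells. Slc38a7, which had also risen there, fell from 24.8, 22.4 and 27.5 to 15.5, 17.1 and 16.8 TPM, a change of -0.56 ± 0.129 (SE, adjusted p = 0.00171). Slc1a3 fell from 13.0, 11.6 and 14.8 to 8.55, 7.19 and 7.27 TPM, a change of -0.70 (adjusted p = 0.00153). Slc36a1 changed by -0.53 (adjusted p = 0.000756) and Slc1a6, a glutamate carrier, by -0.52 (adjusted p = 6.39e-05), or by -0.30 against DMSO.

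Slc7a6 rose by 0.38 in the starved GCN2-deletion line, from 64.7, 53.5 and 72.3 to 81.2, 81.4 and 85.0 TPM (adjusted p = 0.00526), and was not called without untreated replicate 2 (adjusted p = 0.0691). Slc7a1 rose by 0.37, from 35.5, 33.9 and 43.6 to 46.4, 47.5 and 52.7 TPM (adjusted p = 0.0414). That call held without untreated replicate 3 and was lost without any other library (adjusted p up to 0.177). Of the CD98 chains other than Slc7a6, Slc3a2, Slc7a5, Slc7a11 and Slc7a7 did not pass. Slc3a2 had 188, 195 and 179.6 TPM untreated and 187, 186 and 207 TPM starved. The interval of its log2 change ran from -0.08 to 0.17. Slc7a5 had 107, 112 and 115 and 110.3, 115 and 121 TPM, with an interval from -0.15 to 0.25. Slc7a11 had 0.868, 0.736 and 1.39 and 0.435, 0.772 and 0.472 TPM, with an interval from -0.71 to 0.01. These 95% intervals lie far below the rises seen in WT. Slc7a7 had 0.743, 0.273 and 0.798 and 0.182, 0.553 and 0.0755 TPM.

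Set against WT, the log2 change with starvation of the GCN2-deletion line was lower for 9 of the 29 transporters and higher for 1. Among all genes, 4.17% were lower and 3.69% higher. The 9 were Slc6a9, Slc7a11, Slc1a4, Slc7a5, Slc7a1, Slc3a2, Slc38a7, Slc1a5 and Slc38a1. They are 9 of the 10 that rose in starved WT cells, and this difference uses the same WT libraries as that rise. Slc6a9 differed by -3.36 ± 0.234 (SE, adjusted p = 2.66e-11), Slc7a11 by -3.28 ± 0.247 (SE, adjusted p = 1.21e-10) and Slc1a4 by -2.38 ± 0.123 (SE, adjusted p = 4.46e-14). Slc7a5 differed by -1.46 ± 0.139 (SE, adjusted p = 1.32e-08) and Slc7a1 by -1.31 ± 0.188 (SE, adjusted p = 1.5e-05). The 1 transporter with a higher log2 change was Slc38a4, with a difference of 1.05 ± 0.0997 (SE, adjusted p = 1.32e-08), or 0.68 against DMSO. It had fallen in starved WT cells and had 90.9 ± 8.98 TPM untreated and 101 ± 1.90 TPM starved in the GCN2-deletion line. None of the 10 calls ended on leaving out 1 library.

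In the PERK-deletion line starvation raised 5 of the 29 transporters and lowered 1, while 23 did not pass. Over all genes tested, 5.75% rose and 6.39% fell. The medians were 0.06 for the transporters and -0.02 for all genes. Slc7a11 went from 3.10, 3.07 and 2.45 to 6.85, 9.66 and 11.0 TPM, a log2 change of 1.38 ± 0.175 (SE, adjusted p = 2.15e-06). Slc6a9 went from 18.2, 14.7 and 13.4 to 18.8, 36.3 and 33.0 TPM, a change of 0.84 ± 0.166 (SE, adjusted p = 0.000772). In both genes starved replicate 1 was the lowest of the starved libraries. Slc1a3 fell from 11.2, 10.3 and 8.86 to 3.41, 3.76 and 5.23 TPM, a change of -1.12 ± 0.159 (SE, adjusted p = 1.13e-05), or -0.72 against DMSO.

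The other 3 rises in the starved PERK-deletion line were small. Slc7a5 had 119, 118 and 101 TPM untreated and 106, 156 and 166 TPM starved, a log2 change of 0.32 ± 0.0981 (SE, adjusted p = 0.0333). Slc3a2 had 193, 191 and 165 and 200.2, 221 and 234 TPM, a change of 0.25 ± 0.0599 (SE, adjusted p = 0.00451). Slc7a6 had 72.2, 67.4 and 64.7 and 81.6, 84.6 and 88.5 TPM, a change of 0.31 ± 0.0994 (SE, adjusted p = 0.0364). Set beside the DMSO libraries, Slc7a5, Slc3a2 and Slc7a6 were not called, with changes of 0.05, 0.07 and 0.19. Slc7a5 was also lost without starved replicate 2 or 3 or untreated replicate 3, and Slc7a6 without any library but untreated replicate 1 (adjusted p up to 0.244 and 0.117). Without starved replicate 1, 6 transporters rose and 1 fell: Slc7a5 then rose by 0.52, Slc1a4 and Slc7a1 passed with 0.28 and 0.42, and Slc7a6 did not pass. With only the 2 groups compared in the fit, a single transporter of the 29 was called, Slc7a11, and Slc6a9 had an adjusted p of 0.227. Slc7a7 had 1.07, 1.40 and 0.782 TPM untreated and 2.18, 1.73 and 1.39 TPM starved.

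Against WT, the log2 change with starvation in the PERK-deletion line was lower for 9 transporters and higher for 2. Among all genes, 5.34% were lower and 5.58% higher. This comparison shares its WT libraries with that of the GCN2-deletion line. Slc6a9 differed by -1.66 ± 0.234 (SE, adjusted p = 1.01e-05), Slc7a11 by -1.55 ± 0.247 (SE, adjusted p = 5.85e-05) and Slc1a4 by -1.52 ± 0.123 (SE, adjusted p = 7.13e-10). Slc7a1 differed by -1.45 ± 0.188 (SE, adjusted p = 3.02e-06) and Slc7a5 by -1.20 ± 0.139 (SE, adjusted p = 5.06e-07). Slc3a2, Slc38a7, Slc1a5 and Slc38a1 were lower by 0.73 to 1.08. Slc1a5 was not called without untreated replicate 1 of the PERK-deletion line (adjusted p = 0.0564). Slc38a4 and Slc38a10 had fallen in starved WT cells, by 0.89 and 0.21, and their changes of 0.09 and 0.08 in the starved PERK-deletion line did not pass. The differences were 0.98 ± 0.0997 (SE, adjusted p = 5.09e-08) and 0.30 (adjusted p = 0.043), the second a call that ended without starved replicate 2 or 3 or untreated replicate 2 or 3 of the PERK-deletion line, or without starved replicate 1 or untreated replicate 1 or 3 of WT (adjusted p up to 0.138). With only the 4 groups compared in the fit, 7 transporters were called.

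In the GCN2-deletion line thapsigargin raised 15 of the 29 transporters and lowered 3, and 11 did not pass. Over all genes tested, 25.4% rose and 11.3% fell. The medians were 0.40 for the transporters and 0.08 for all genes. After rescaling by the median of ratios, 12 transporters rose and 6 fell, and over all genes the 4093 rises and 1815 falls became 3000 and 3226. Summed TPM of marker lists moved in the same libraries: from 22.7 to 28.2 with DMSO to 37.8 to 43.5 with thapsigargin for 3 neural genes, from 2.20 to 3.86 to 5.13 to 6.84 for 3 endothelial genes and from 6549 to 6886 down to 5538 to 5696 for 8 fibroblast genes. Their part in the result was not tested. Slc7a11 went from 1.03, 1.16 and 1.32 to 17.2, 17.5 and 16.3 TPM, a log2 change of 3.05 ± 0.175 (SE, adjusted p = 1.06e-13). Slc6a9 went from 11.1, 12.3 and 9.67 to 64.9, 68.5 and 58.1 TPM, a change of 2.44 ± 0.166 (SE, adjusted p = 3.84e-12). Slc7a1 went from 41.0, 40.3 and 41.4 to 179, 169 and 166 TPM, a change of 2.04 ± 0.133 (SE, adjusted p = 1.57e-12). In these 3 genes the lowest thapsigargin library was far above the highest DMSO library.

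The heavy chain Slc3a2 went from 206, 209 and 190.1 to 744, 699 and 729.7 TPM in the GCN2-deletion line, a change of 1.84 ± 0.0599 (SE, adjusted p = 3.91e-19). Slc1a4 went from 20.4, 19.1 and 19.5 to 68.2, 62.4 and 67.3 TPM, a change of 1.70 ± 0.0867 (SE, adjusted p = 9.08e-15), and Slc7a5 from 137, 129.9 and 126 to 389.9, 353 and 362 TPM, a change of 1.48 ± 0.0981 (SE, adjusted p = 2.09e-12). Slc7a3, a cationic carrier known from neural tissue, also rose. It had 2.48, 1.91 and 0.988 TPM with DMSO and 8.41, 6.71 and 8.06 TPM with thapsigargin, a change of 1.68 ± 0.210 (SE, adjusted p = 3.13e-07). Slc38a7 went from 27.7, 22.9 and 23.1 to 61.8, 51.7 and 52.9 TPM, a change of 1.14 (adjusted p = 5.38e-08).

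Of the smaller rises in the GCN2-deletion line, Slc38a1, Slc38a2 and Slc43a1 changed by 0.70, 0.62 and 0.52. Slc7a7 had 0.349, 0.844 and 0.461 TPM with DMSO and 2.10, 0.979 and 1.61 TPM with thapsigargin, a change of 0.71 (adjusted p = 0.00861), or 1.37 with a pseudocount of 0.1, that was lost without thapsigargin replicate 1 (adjusted p = 0.065). Slc43a2, Slc1a5 and Slc36a4 rose by 0.46, 0.43 and 0.40. The call of Slc43a2 ended without DMSO replicate 1 or 3 or thapsigargin replicate 2 or 3 (adjusted p up to 0.108), that of Slc1a5 without DMSO replicate 2 or 3 or thapsigargin replicate 1 or 3 (up to 0.134), and that of Slc36a4 without any 1 of the 6 libraries (up to 0.156). These 3 calls also ended after median-of-ratios rescaling, while Slc1a5 stood at 0.70 without the libraries of high microRNA share. Slc1a3 fell from 12.9, 11.8 and 14.3 to 6.55, 5.53 and 8.73 TPM, a change of -0.83 (adjusted p = 0.000131). Slc38a4 fell by 0.44 and Slc38a10 by 0.34. Slc7a6 had 69.2, 68.8 and 66.3 TPM with DMSO and 64.6, 65.5 and 63.6 TPM with thapsigargin and did not pass.

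Against WT, the log2 change with thapsigargin in the GCN2-deletion line was higher for 7 of the 29 transporters and lower for 0 with limma, where 16 had an unadjusted p under 0.05 in either direction. Among all genes, 12.3% were higher and 1.95% lower at an adjusted p under 0.05, and no share was taken at the unadjusted threshold. This split depends on the scale: median-of-ratios rescaling moved the median of all genes by -0.15, and the 1978 higher and 314 lower genes became 1228 and 1046. After that rescaling 5 transporters were higher and 2 lower. Slc7a11 differed by 1.57 ± 0.247 (SE, adjusted p = 0.000107) and Slc7a3 by 1.49 ± 0.296 (SE, adjusted p = 0.00145). Neither call ended on leaving out 1 library. Slc7a1 differed by 0.65 (adjusted p = 0.0229), and was lost without thapsigargin replicate 1 of the GCN2-deletion line, DMSO replicate 1 of WT or thapsigargin replicate 2 or 3 of WT (adjusted p up to 0.0772). Slc38a4 differed by 0.43 (adjusted p = 0.00587), or by 0.80 with untreated cells as the control, and stood at 0.17 after quantile normalization (adjusted p = 0.336). Slc36a4, Slc38a2 and Slc36a1 were higher by 0.66, 0.52 and 0.50, and these calls ended without most single libraries: for Slc36a4 all but DMSO replicate 2 and thapsigargin replicate 1 of WT, for Slc38a2 and Slc36a1 DMSO replicate 1 or 3 or thapsigargin replicate 2 or 3 of WT, DMSO replicate 2 or 3 or thapsigargin replicate 1 of the GCN2-deletion line, and for Slc38a2 also thapsigargin replicate 3 of that line (adjusted p up to 0.146, 0.0887 and 0.103). Not all 7 are larger rises: Slc38a4 fell in both lines, by 0.44 against 0.87 in WT, and Slc36a1 fell in WT by 0.41 and changed by 0.09, not passing, in the GCN2-deletion line. Slc36a4 changed by -0.26 in WT, not passing, and rose by 0.40 in that line. The count fell to 3 or 4 without any 1 of the 7 libraries named for Slc36a1 and rose to 11 without DMSO replicate 2 of WT.

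In the PERK-deletion line thapsigargin raised 4 of the 29 transporters and lowered 1, and 24 did not pass. Of all tested genes, 2.50% rose and 2.80% fell. The medians were -0.02 for the transporters and -0.04 for all genes. Slc3a2 went from 195, 225 and 203 to 303, 311 and 304 TPM, a log2 change of 0.56 ± 0.0599 (SE, adjusted p = 1.21e-07). This was the only one of the 5 calls that leaving out any single library did not end. Slc6a9 went from 19.0, 18.6 and 15.9 to 29.1, 26.8 and 27.4 TPM, a change of 0.61 ± 0.166 (SE, adjusted p = 0.0247). Slc38a2 and Slc43a1 rose by 0.39 and 0.39 (adjusted p = 0.0356 and 0.0246). Slc1a3 went from 7.57, 7.84 and 6.78 to 4.53, 5.22 and 3.85 TPM and fell by 0.61 (adjusted p = 0.0185).

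In the PERK-deletion line, leaving out any library but DMSO replicate 1 ended the call of Slc6a9, and leaving out any of the 6 ended that of Slc38a2 (adjusted p up to 0.122 and 0.127). That of Slc43a1 ended without replicate 1 or 2 of either group, and that of Slc1a3 without DMSO replicate 1 or 2 or thapsigargin replicate 1 or 3 (up to 0.142 and 0.122). With any of the 6 libraries left out, 1 to 3 calls were made. Against untreated cells of the same line 8 transporters were called, and Slc43a1 and Slc1a3 stood at -0.01 and -1.01. After median-of-ratios rescaling 6 transporters rose and 1 fell, while over all genes 402 rises and 451 falls became 635 and 430. Slc7a11 had 3.08, 3.05 and 3.19 TPM with DMSO and 4.94, 5.53 and 4.63 TPM with thapsigargin. The ranges did not overlap, and the change of 0.55 (adjusted p = 0.0645) did not pass. Slc7a5 had 131, 145 and 130.5 and 137, 135 and 143 TPM, with a 95% interval of the change from -0.17 to 0.23. Slc1a4 had 33.6, 34.3 and 30.5 and 31.1, 28.3 and 28.4 TPM, with an interval from -0.34 to 0.02. The rises of Slc7a5 and Slc1a4 in WT lie above these intervals. Slc7a1 had 70.2, 68.1 and 62.1 and 84.5, 85.5 and 87.3 TPM, and Slc38a7 had 37.3, 40.4 and 37.9 and 42.7, 42.1 and 44.2 TPM; neither passed. Slc7a6 had 70.6, 78.2 and 74.9 and 68.0, 68.4 and 65.2 TPM, and Slc7a7 had 0.715, 1.66 and 0.856 and 0.676, 0.558 and 1.68 TPM.

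Against WT, the log2 change with thapsigargin in the PERK-deletion line was lower for 8 of the 29 transporters and higher for 2. Among all genes, 7.38% were lower and 5.59% higher. Slc1a4 differed by -1.53 ± 0.123 (SE, adjusted p = 5.6e-10), Slc3a2 by -1.37 ± 0.0847 (SE, adjusted p = 4.99e-12) and Slc6a9 by -1.29 ± 0.234 (SE, adjusted p = 0.000273). Slc7a5 differed by -1.07 ± 0.139 (SE, adjusted p = 2.7e-06) and Slc7a1 by -1.04 ± 0.188 (SE, adjusted p = 0.000279). Slc7a11, Slc38a7 and Slc1a5 were lower by 0.93, 0.87 and 0.72. All 8 had risen in WT cells given thapsigargin, and the same WT libraries enter both comparisons. The 2 with a higher log2 change, Slc6a6 by 0.83 (adjusted p = 0.00471) and Slc38a4 by 0.81 (adjusted p = 1.14e-06), had fallen in WT, and changed by -0.02 and -0.05 in the PERK-deletion line, not passing. Slc1a5 was lost without thapsigargin replicate 2 of WT, DMSO replicate 2 or thapsigargin replicate 3 of the PERK-deletion line (adjusted p up to 0.0582). Slc7a11 was lost with only the 4 groups compared in the fit (adjusted p = 0.0541), and Slc38a7 with untreated cells as the control (adjusted p = 0.0542).

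**Figure D3:**
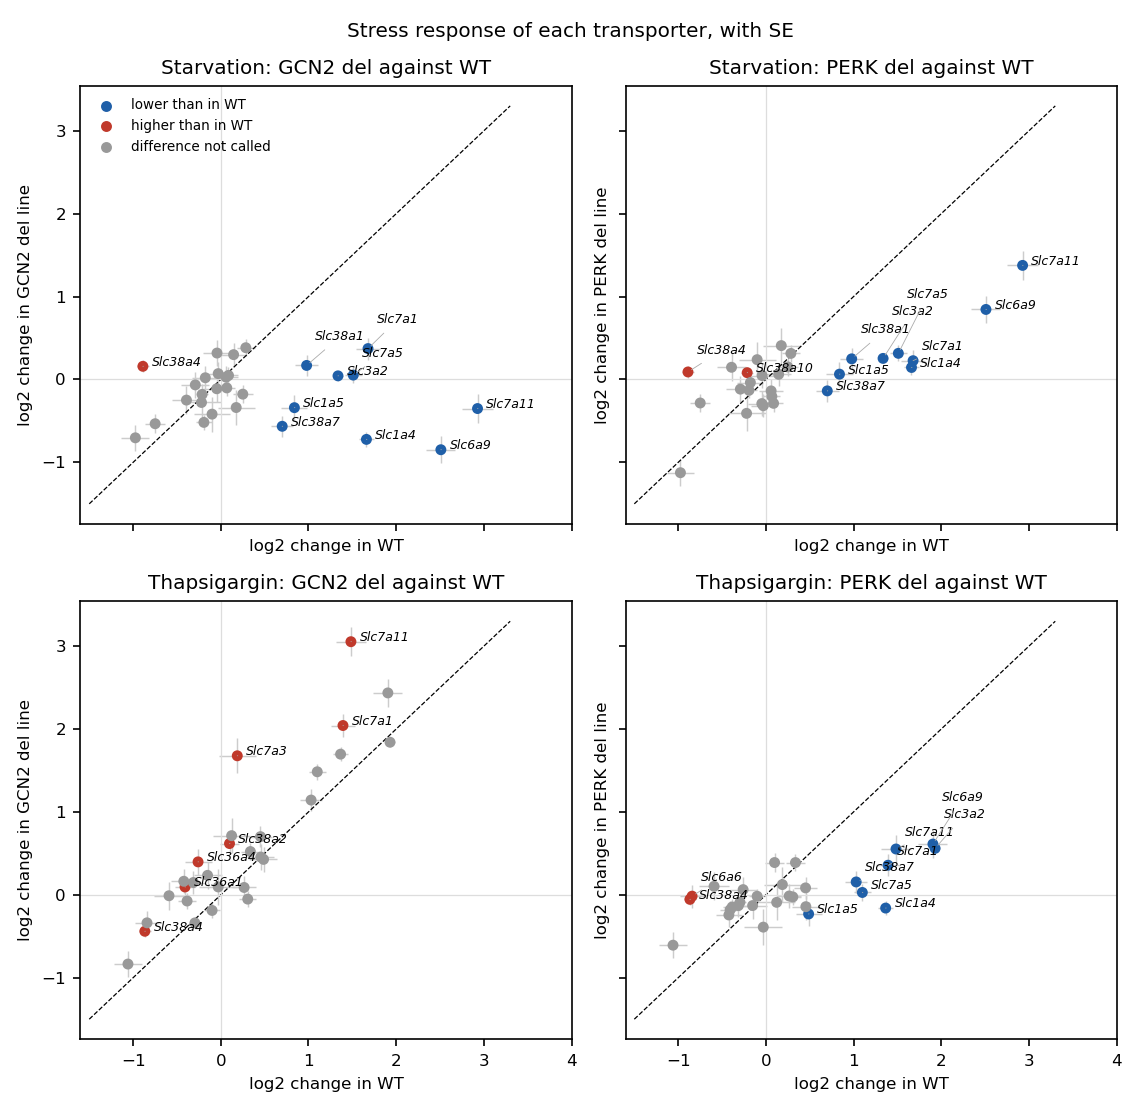
Log2 change of each of the 29 transporters in a deletion line (vertical) against that in WT (horizontal), with SE bars, for starvation (top) and thapsigargin (bottom). The dashed line marks equal responses, and coloured, named points are those whose response differed between the lines at an adjusted p under 0.05: 9 lower and 1 higher for starvation in the GCN2-deletion line, and 0 lower and 7 higher for thapsigargin there. Among all genes, 4.17% were lower and 3.69% higher for that starvation difference, and 1.95% lower and 12.3% higher for that thapsigargin difference. The split with thapsigargin depends on the scaling of the libraries.

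Before any stress the lines already differed in most of these transcripts. Marker sums differed as well: the 8 fibroblast genes summed to 4871 to 5169 TPM in untreated WT, 6811 to 6982 in the GCN2-deletion line and 3050 to 3277 in the PERK-deletion line, and the 3 neural genes to 36.6 to 44.1, 26.0 to 32.1 and 14.2 to 17.0 TPM. Their part in the differences was not tested. In untreated cells of the GCN2-deletion line 6 of the 29 transporters were higher than in WT, 13 were lower and 10 did not pass. Of all tested genes, 21.2% were higher and 23.2% lower. Slc38a4 had the largest difference: 6.43, 7.19 and 5.99 TPM in untreated WT libraries against 87.2, 84.3 and 101 TPM in the GCN2-deletion line, a log2 difference of 3.61 ± 0.0705 (SE, adjusted p = 3.58e-25). Slc38a4 is an imprinted gene of liver and placenta. Slc1a6 was at 0.588 ± 0.151 TPM in WT and 3.89 ± 0.380 TPM in the deletion line, a difference of 1.62 ± 0.0876 (SE, adjusted p = 5.77e-15). Slc7a2, an arginine carrier, was at 0.776 ± 0.174 and 4.45 ± 1.23 TPM, a difference of 1.60 ± 0.138 (SE, adjusted p = 1.39e-10). With a pseudocount of 0.1 in place of 1, the difference of Slc1a6 was 2.55. Slc1a6 reached 1 TPM in 12 libraries, each from the GCN2-deletion line, and Slc7a2 in 21 libraries, none from WT. Both thus passed the filter only through deletion lines, so their calls here are no independent support for a higher level. Slc38a7 and Slc43a1 were higher by 0.97 and 0.78.

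The transporters that were lower in the untreated GCN2-deletion line include carriers of glutamine, glycine and glutamate. Carriers of these substrates were also among the higher ones: the glutamate carrier Slc1a6, by 1.62, and the glutamine and asparagine carrier Slc38a7, by 0.97. Slc1a5 was at 148, 102 and 92.6 TPM in WT and 17.2, 21.5 and 19.5 TPM in the deletion line, a log2 difference of -2.48 ± 0.149 (SE, adjusted p = 6.31e-14). Slc6a9 was at 32.6, 25.3 and 23.9 and 9.06, 8.16 and 9.82 TPM, a difference of -1.49 ± 0.166 (SE, adjusted p = 1.91e-08). Slc1a3 was at 48.5, 38.3 and 29.1 and 13.0, 11.6 and 14.8 TPM, a difference of -1.46 ± 0.159 (SE, adjusted p = 1.16e-08). In none of these 3 genes did the lines overlap. Slc43a3 was lower by 1.08 and Slc38a3, a glutamine carrier at a median of 0.721 TPM over all libraries, by 0.94, with a difference of -2.17 at a pseudocount of 0.1. Slc38a3 reached 1 TPM in 8 libraries, none from the GCN2-deletion line, so it passed the filter only through the other lines. Slc38a2, Slc16a10, Slc38a1, Slc7a1, Slc38a6, Slc3a2, Slc6a6 and Slc7a5 were lower by 0.25 to 0.91. Slc16a10 carries aromatic amino acids. The calls of Slc7a5, Slc6a6 and Slc38a6 among the lower ones, and of Slc36a4 among the higher ones, ended on leaving out 1 library (adjusted p up to 0.12, 0.249, 0.207 and 0.14). For Slc7a5 this was any library but replicate 3 of WT, for Slc6a6 and Slc38a6 replicate 1 or 2 of either line, and for Slc36a4 replicate 3 of either line. With the DMSO groups in place of the untreated ones, Slc16a10, Slc38a6, Slc6a6 and Slc7a5 were not called.

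In the untreated PERK-deletion line 12 transporters were higher than in WT, 10 lower and 7 did not pass. Of all tested genes, 31.2% were higher and 18.6% lower. After median-of-ratios rescaling the 5022 higher and 2986 lower genes became 4155 and 4119, and 12 transporters were higher and 12 lower. Slc38a4 again differed most, at 70.4, 68.9 and 58.5 TPM, a log2 difference of 3.15 ± 0.0705 (SE, adjusted p = 8.43e-24). Slc38a7 was at 36.7, 33.0 and 29.0 TPM, a difference of 1.35 ± 0.129 (SE, adjusted p = 8.67e-10). Slc7a4, an SLC7 member with less known function, was at 0.389 ± 0.516 TPM in WT and 2.25 ± 0.499 TPM in the deletion line, a difference of 1.27 ± 0.217 (SE, adjusted p = 1.7e-05), or 2.80 with a pseudocount of 0.1. The untreated WT libraries of Slc7a4 had 0.981, 0.147 and 0.0377 TPM. It reached 1 TPM in 10 libraries, each from the PERK-deletion line. Slc7a4 thus passed the filter only through the line where it was higher, so its call is no independent support for a difference. Slc38a9 and Slc43a2 were both higher by 0.84.

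The transporters lowest relative to WT in the untreated PERK-deletion line were Slc1a3 at 11.2, 10.3 and 8.86 TPM, a log2 difference of -1.81 ± 0.159 (SE, adjusted p = 1.73e-10), and Slc1a5 at 44.0, 30.5 and 31.2 TPM, a difference of -1.66 ± 0.149 (SE, adjusted p = 2.8e-10). Slc43a3, Slc38a2 and Slc38a1 were lower by 1.15, 1.14 and 1.03. Both deletion lines were set against the same untreated WT libraries, of which replicate 1 was high for Slc1a3 and Slc1a5. Without that library the 2 differences were -1.64 and -1.46, both still called. The smaller differences of Slc7a5, Slc7a2, Slc7a6, Slc36a1 and Slc38a3 lost their call on leaving out 1 library (adjusted p up to 0.231, 0.0939, 0.0793, 0.0709 and 0.126). For Slc7a6 and Slc36a1 that library was replicate 3 of WT alone, for Slc7a5 any of WT or replicate 3 of the PERK-deletion line, for Slc7a2 replicate 1 or 2 of that line or 3 of WT, and for Slc38a3 replicate 3 of that line or 1 of WT. With only the 2 untreated groups in the fit 14 transporters were called.

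**Figure D4:**
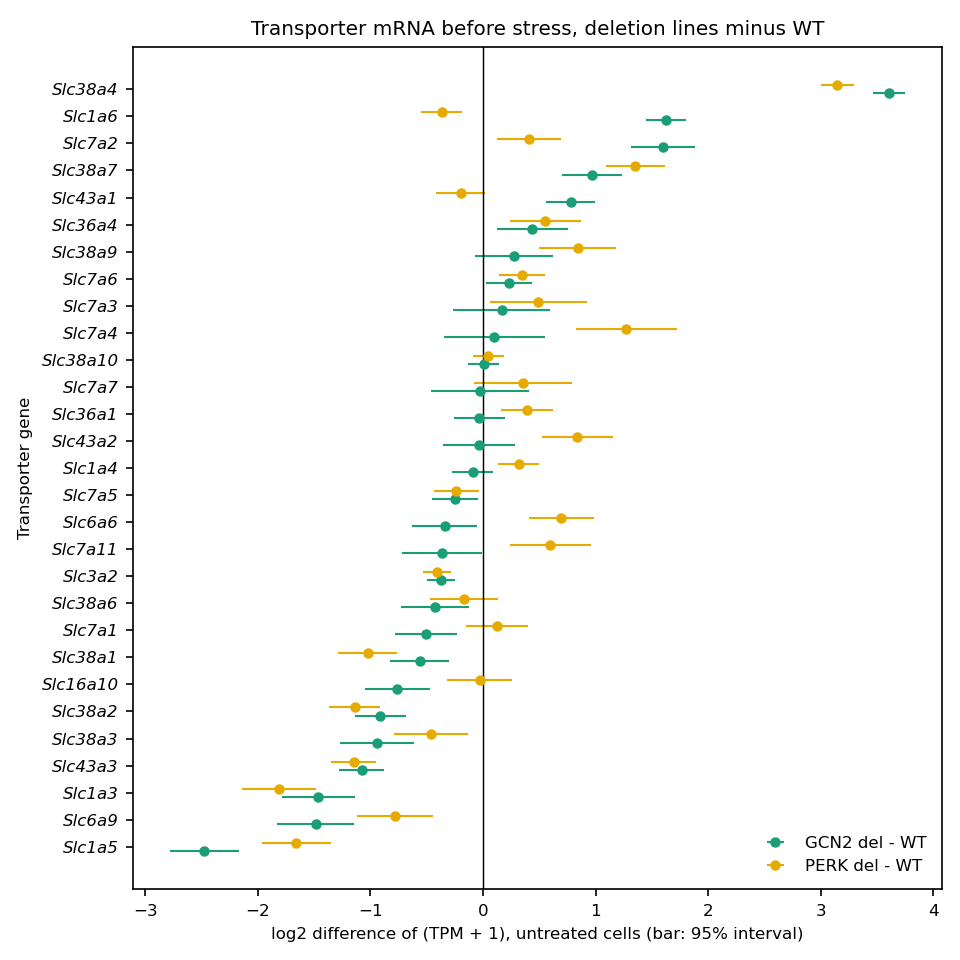
Log2 difference of each of the 29 transporters (rows) between untreated cells of each deletion line and untreated WT cells (points), with 95% intervals as bars. Slc38a4 stands highest in both lines, at 3.61 and 3.15. The lowest is Slc1a5 in the GCN2-deletion line, at -2.48, and Slc1a3 in the PERK-deletion line, at -1.81.

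The heavy chain of the CD98 heterodimers and its light chains were also compared by level, since TPM is scaled by length. This comparison was added after the values were seen and is a description without a test. The light chains Slc7a5, Slc7a6, Slc7a7, Slc7a8, Slc7a10 and Slc7a11 together had 189 ± 13.7 TPM in untreated WT libraries, 0.777 ± 0.050 for each 1 of Slc3a2. In starved WT libraries that ratio was 0.755 ± 0.00676, and both sums had risen. With thapsigargin it was 0.389 ± 0.0243, against 0.833 ± 0.0394 with DMSO. The thapsigargin libraries of WT lay at 0.366 to 0.414 and the DMSO libraries at 0.799 to 0.876, with no overlap. With GCN2 deleted the ratio was 0.997 ± 0.0314 with DMSO and 0.623 ± 0.0147 with thapsigargin, and in the PERK-deletion line 1.03 ± 0.0209 and 0.692 ± 0.0182.

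The make-up of the light chains was compared in the same way. Slc7a5 made up 70.4 ± 3.25% of light chain TPM in untreated WT libraries, 81.7 ± 0.691% in starved ones, 71.4 ± 2.64% with DMSO and 86.0 ± 1.31% with thapsigargin. With GCN2 deleted it made up 63.2 ± 3.53% untreated, 58.1 ± 0.632% starved, 65.2 ± 0.720% with DMSO and 81.5 ± 0.754% with thapsigargin. In the PERK-deletion line the same shares were 60.8 ± 1.21%, 59.3 ± 4.76%, 63.2 ± 0.825% and 65.3 ± 1.18%, and the starved libraries overlapped the untreated ones. Slc7a11 went from 0.823 ± 0.132% in untreated to 3.97 ± 0.394% in starved WT libraries and, in the PERK-deletion line, from 1.55 ± 0.0883% to 3.81 ± 0.320%. In the GCN2-deletion line it went from 0.559 ± 0.155% to 0.282 ± 0.0942%. In every group Slc7a11 was a small part of light chain mRNA.

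**Figure D5:**
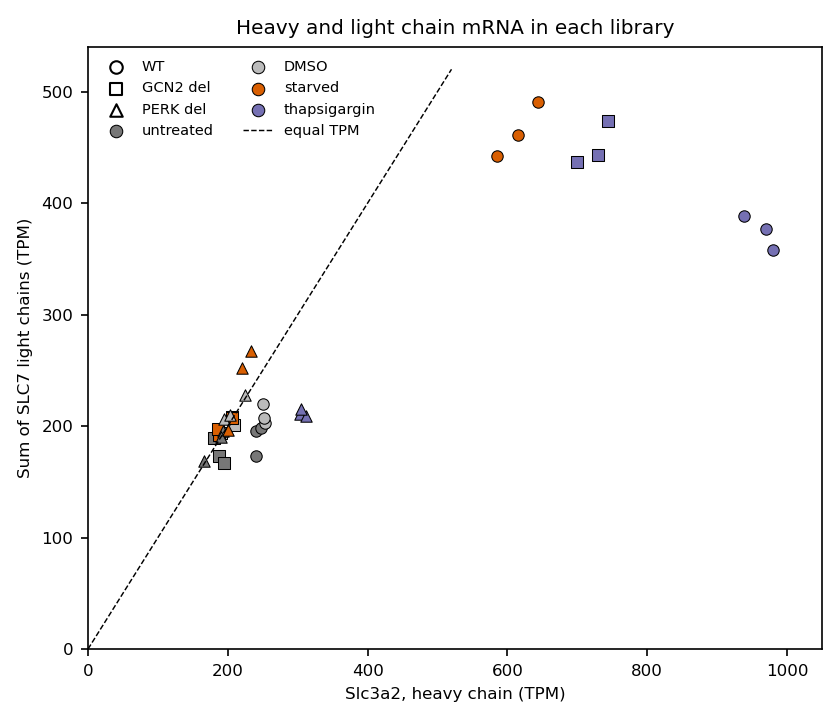
Summed TPM of the light chains (vertical) against TPM of the heavy chain Slc3a2 (horizontal) in each of the 36 libraries, with the line as the symbol and the treatment as the colour. Libraries of WT with thapsigargin lie farthest right, at 939 to 979.9 TPM of Slc3a2, and below the dashed line of equal TPM.

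Lists of related genes give the setting of these changes. Of 36 tested genes of the ATF4 and CHOP pathway, 34 rose and 0 fell in starved WT cells with limma, and 35 rose and 0 fell with thapsigargin. Over all genes tested the shares that rose were 12.5% and 11.4%. Trib3, Fgf21 and Adm2 rose most with starvation, by 3.39, 3.10 and 2.98. Herpud1, Ddit3 and Trib3 rose most with thapsigargin, by 4.32, 3.94 and 3.83. Ddit3 encodes CHOP, Trib3 a pseudokinase induced by it, and Herpud1 a protein of ER-associated degradation. In the starved GCN2-deletion line 2 of the 36 rose and 21 fell, and in the starved PERK-deletion line 9 rose and 2 fell. The shares of all genes were 11.7% and 12.2% in the first and 5.75% and 6.39% in the second. With thapsigargin 36 rose with GCN2 deleted and 13 with PERK deleted, against 25.4% and 2.50% of all genes. Median log2 changes of the list were 1.24 in starved WT cells, -0.28 in the starved GCN2-deletion line and 0.14 in the starved PERK-deletion line. The list was chosen with earlier results of these data known, so its direction is not independent evidence.

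Of 21 tested carriers of amino acids outside the 6 families, 1 rose and 6 fell in starved WT cells, and 4 rose and 4 fell with thapsigargin. Of all genes, 12.5% rose and 17.4% fell with starvation, and 11.4% and 14.8% with thapsigargin. The median changes of these carriers were -0.19 and 0, against -0.05 and -0.04 for all genes. Slc25a29, a mitochondrial carrier of basic amino acids, rose by 0.43 and 0.69. Those that fell most with starvation were Mfsd12 by 0.75, Pqlc2 by 0.68 and the cystine exporter Ctns by 0.56. With thapsigargin Slc25a13, Slc25a22 and Slc17a5 fell most, by 0.67, 0.46 and 0.39.

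Of 32 tested genes of amino acid sensing by mTORC1, the kinase complex that couples nutrients to growth, 4 rose and 10 fell in starved WT cells, and 5 rose and 4 fell with thapsigargin. The 4 rises are the share found over all genes, 12.5%, and the thapsigargin counts are near theirs, 11.4% and 14.8%. The 10 falls stand beside 17.4% of all genes. The median changes were -0.13 and -0.03. Sesn2, a leucine sensor that is also on the ATF4 list, rose by 2.18 and 2.19. Rheb, which activates mTORC1, rose by 0.93 and 0.67. Castor2, of the arginine sensor family, fell by 1.19 and 1.00. Sesn1 and Fnip1 fell with starvation by 0.74 and 0.69. The arginine sensor Slc38a9, a member of the transporter set, had lowest, median and highest values of 1.59, 4.09 and 9.16 TPM over all libraries.

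The remaining transporters are given by their lowest, median and highest TPM over the 36 libraries. Slc16a10 had 2.85, 5.08 and 7.69 TPM and Slc38a3 0.121, 0.721 and 1.90 TPM, and neither passed in any stress comparison, as was also so for Slc7a2 and Slc7a4. Slc36a1 had 4.27, 8.49 and 14.9 TPM and Slc36a4 5.44, 12.2 and 17.8 TPM. Slc43a1 had 0.707, 1.81 and 5.43 TPM, Slc43a2 1.10, 1.90 and 3.72 TPM and Slc43a3 10.3, 14.8 and 37.4 TPM. Slc38a6 and Slc38a10 had 11.2, 15.4 and 24.5 TPM and 65.5, 88.2 and 108 TPM.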

How the data were processed

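RNA of 36 libraries (12 groups of 3) was analysed. Values were used as the authors deposited them: TPM per gene symbol, with FastQC, kallisto and mm10 named in the submitters' processing notes, without versions; libraries were made from total RNA with a stranded kit per the labels' protocols. TPM keep no depth. The table held 0 columns of other samples and 0 repeated symbols, and 54106 of 54735 symbols matched GENCODE M21.

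The 16083 genes that reached 1 TPM in 3 or more libraries were fitted on log2(TPM + 1) with limma 3.58.1 in R 4.3.3, 1 mean per group over all 36 libraries, trended moderated variances, 24 residual degrees of freedom. Adjusted p values are limma's, by Benjamini-Hochberg over all genes tested in each of 16 comparisons, threshold 0.05. The procedure was also run on simulated data with normal noise and no difference between lines. That run checks the working of the procedure only and is no evidence for the calls. Named are all tested transporters, by library those changing by at least 1 on the log2 scale in WT and the CD98 chains, in each comparison the up to 5 most changed per direction, and up to 3 genes per list in WT. Members and lists were chosen with earlier results of these data known. Promoters are RefSeq, GRCm38.p6.

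Replicate numbers name technical replicates and did not pair libraries: 0 of 11 comparisons had every same-number correlation above 0.1 (range -0.179 to 0.155). Alternatives were other controls, median-of-ratios and quantile scaling, pseudocount 0.1, no filter, a filter at 5 TPM, variances without trend, compared groups alone, a replicate block and each library left out; added after seeing the data were protein-coding genes alone and the data without 6 libraries of over 2% microRNA TPM.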

Additional observations from a re-analysis of the deposited data

Results flagged for a closer look

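A closer look is due where a transporter answered a stress differently in a deletion line than in WT. The difference of the 2 responses was tested with limma, over all genes, for each of the 29 transporters in 2 stresses and 2 deletion lines. Of these differences 38 passed. Among all genes, 4.17% were lower and 3.69% higher for starvation in the GCN2-deletion line, and 5.34% and 5.58% in the PERK-deletion line. With thapsigargin 1.95% were lower and 12.3% higher in the GCN2-deletion line, and 7.38% and 5.59% in the PERK-deletion line. Each difference that passed is given below on the log2 scale, as the response in the deletion line minus that in WT. The comparisons for the 2 deletion lines share their WT libraries, and each genotype is 1 line.

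In starvation of the GCN2-deletion line the differences from WT were -3.36 for Slc6a9, -3.28 for Slc7a11, -2.38 for Slc1a4, -1.46 for Slc7a5, -1.31 for Slc7a1, -1.29 for Slc3a2, -1.26 for Slc38a7, -1.18 for Slc1a5, -0.81 for Slc38a1 and 1.05 for Slc38a4. In starvation of the PERK-deletion line the differences from WT were -1.66 for Slc6a9, -1.55 for Slc7a11, -1.52 for Slc1a4, -1.45 for Slc7a1, -1.20 for Slc7a5, -1.08 for Slc3a2, -0.84 for Slc38a7, -0.78 for Slc1a5, -0.73 for Slc38a1, 0.30 for Slc38a10 and 0.98 for Slc38a4. The members lower in both lines include both chains of the leucine and cystine exchangers, Slc3a2 with Slc7a5 and Slc7a11.

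With thapsigargin in the GCN2-deletion line the differences from WT were 0.43 for Slc38a4, 0.50 for Slc36a1, 0.52 for Slc38a2, 0.65 for Slc7a1, 0.66 for Slc36a4, 1.49 for Slc7a3 and 1.57 for Slc7a11. With thapsigargin in the PERK-deletion line the differences from WT were -1.53 for Slc1a4, -1.37 for Slc3a2, -1.29 for Slc6a9, -1.07 for Slc7a5, -1.04 for Slc7a1, -0.93 for Slc7a11, -0.87 for Slc38a7, -0.72 for Slc1a5, 0.81 for Slc38a4 and 0.83 for Slc6a6. Leaving out single libraries ended the calls of Slc36a1, Slc36a4, Slc38a2 and Slc7a1 with thapsigargin in the GCN2-deletion line. In the PERK-deletion line it ended those of Slc38a10 and Slc1a5 with starvation and of Slc1a5 with thapsigargin. No group held more than 3 libraries, so single libraries were not screened as outliers.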

How the results depend on the processing

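Over the 16 comparisons 154 calls were made; leaving out single libraries ended 36 and left 118. Of the 154, 53 ended under at least 1 other setting: 42 with only the groups compared in the fit, 22 with the other control, 17 without a filter, 10 without the 6 libraries of high microRNA share, 8 after quantile normalization, 7 after median-of-ratios rescaling, 4 with a replicate block, 3 without trend and 2 with pseudocount 0.1. The number of transporters called with each library left out ran from 13 to 14 for starvation in WT, 6 to 10 in the GCN2-deletion line and 4 to 7 in the PERK-deletion line. For thapsigargin it ran from 16 to 18, 15 to 16 and 1 to 3, and for DMSO in WT from 0 to 4 (4 without untreated replicate 3). For the differences from WT it ran from 10 to 12 in both lines for starvation, and from 3 to 11 (GCN2) and 9 to 11 (PERK) for thapsigargin. It ran from 16 to 19 and 19 to 21 for untreated lines, and 4 to 6 for starvation minus thapsigargin in WT. With only the groups compared, 1 transporter was called for starvation in the PERK-deletion line, 7 for its difference from WT and 14 for untreated cells. For thapsigargin in the PERK-deletion line 3 were called without a filter and 8 with the other control. For the thapsigargin difference of the GCN2-deletion line 4 were called without a filter, 13 with the other control and 11 without the high-microRNA libraries. For starvation minus thapsigargin in WT 9 were called after rescaling, 9 after quantile normalization, 10 with the other control and 9 without the high-microRNA libraries. Quantile normalization gave 1 call for DMSO in the PERK-deletion line. With the other control, Slc38a4 reversed to 0.59 for starvation minus thapsigargin in WT (adjusted p = 9.425e-05, from -0.02) and Slc43a1 to -0.0089 with thapsigargin in the PERK-deletion line (adjusted p = 0.996). The causes were not tested. Replicate numbers did not pair libraries; the replicate block ended 4 calls: Slc7a1 for starvation (7 called) and Slc6a6 for untreated cells (18 called) in the GCN2-deletion line, and Slc38a10 for the starvation difference and Slc7a5 for untreated cells of the PERK-deletion line, where another gene was called in its place and the counts stayed at 11 and 22. TPM keep no depth, so limits of detection are unknown.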

Other observations

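Summed over the 45 transporter genes, TPM in WT libraries was 1419.9 ± 168 untreated (mean ± SD, n = 3), 1381.6 ± 90.7 with DMSO, 2576 ± 97.1 starved and 2480.4 ± 104 with thapsigargin. For the GCN2-deletion line the sum was 1076.5 untreated, 1156.8 with DMSO, 1095.3 starved and 2262.6 with thapsigargin. For the PERK-deletion line it was 1203, 1313, 1352 and 1465 in the same order. These sums follow mainly the few abundant members and carry no test.

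Of the 36 tested genes of the ATF4 and CHOP pathway, the starvation response was lower than in WT for 36 in the GCN2-deletion line and for 33 in the PERK-deletion line, and higher for 0 in either. Of all genes, 4.17% and 5.34% were lower. With thapsigargin the response was higher than in WT for 19 and lower for 4 in the GCN2-deletion line, and higher for 0 and lower for 32 in the PERK-deletion line. Of all genes, 12.3% were higher and 1.95% lower in the first, and 5.59% and 7.38% in the second. These counts share their WT libraries, and the list was chosen with earlier results known.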
